A study of Mus musculus with 21 samples.

Results

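The comparison of wound bed with wound edge 6 days after wounding rests on 6 of the 21 arrays of the series, 3 of bed and 3 of edge, chosen by their titles. All donors were female C57Bl/KS-db/+ mice aged 9 to 13 weeks, heterozygous for the db mutation of the leptin receptor, and all groups shared this genotype. Back skin of 1.5 by 1.5 cm had been cut out together with the panniculus carnosus, the thin muscle sheet below it, and the wound was covered with a transparent dressing. The bed is the tissue that filled the wound (its titles name it wound bed, while its source label speaks of skin from the day of surgery), and the edge is the bordering skin, taken 2 mm wide. Bed and edge were also sampled at days 2 and 15, and intact skin served as the unwounded control, with 3 arrays in each of the 7 groups. Per the labels, 3 animals were used per time point. Whether bed and edge of the same number share an animal is not stated, and the reported fit took all samples as independent. A p-value here speaks only of the spread between the samples at hand, which may be technical.

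As background, the bed of an open skin wound at this stage is granulation tissue, which holds fibroblasts, inflammatory cells and growing vessels in a new matrix. The edge keeps epidermis, hair follicles and dermis, and its keratinocytes divide and migrate across the bed. Heparan sulfate, the subject of the series, is a long sulfated polysaccharide, carried by proteoglycans of the cell surface and the matrix, which binds growth factors and is cut by heparanase. In whole tissue, fewer cells of a type and less RNA per cell cannot be told apart.

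Each array carried 1687 probes with 8 spots each. A signal is the normalised log2 intensity of a probe. Whether a probe was above the blank spots was judged on background-corrected log2 intensities before normalisation between arrays. Its mean over spots had to exceed the 95th percentile of the blank and empty spots of that array. Of the 1687 probes, 974 were above the blanks on at least 3 of the 21 arrays and were tested, and 713 were not. The files pair 3 probes with a gene through a RefSeq accession, namely Hpse, Fbln1 and Ndst3, and the others are given by count or by catalogue identifier. The keratinocyte, fibroblast, macrophage, neutrophil, endothelial, muscle and adipocyte markers were among no named probes, so the tissue labels could not be set against their markers.

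The day 6 arrays differed in quality between the tissues. Bed replicates 1, 2 and 3 had 775, 547 and 487 probes above the blanks, and edge replicates 1, 2 and 3 had 791, 831 and 780. Spots with flag 1, which were left out, were more frequent in the edge. They numbered 4, 28 and 1 in bed replicates 1, 2 and 3, and 182, 524 and 567 in edge replicates 1, 2 and 3. Across the tested probes, pairs of bed arrays had r of 0.774 to 0.903 and pairs of edge arrays 0.900 to 0.920. Bed replicate 2 stood apart, with r of 0.644 to 0.697 to the edge arrays, where the other bed arrays had 0.810 to 0.846. Bed replicates 2 and 3 were scanned on scan day 3, edge replicates 1 and 2 on scan day 1, and bed replicate 1 and edge replicate 3 on scan day 2, so bed and edge shared only that scan day. With 3 arrays a group, precision is limited by their number.

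Bed and edge differed at 159 of the 974 probes (16.3%) at a limma adjusted p below 0.05, with 78 higher in the bed (8.01%) and 81 lower (8.32%). The 78 higher probes had a median fitted log2 difference of 1.51 and a range of 0.97 to 3.53. The 81 lower probes had a median of -1.55 and ranged from -0.84 to -3.53. Over all tested probes the median difference was -0.04. The bed and edge arrays did not overlap in 153 of the 159, against 324 of all 974 (33.3%).

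Some calls concerned probes at the level of the blanks in the dimmer tissue. Of the 81 lower probes, 31 were above the blanks on no bed array, and of the 78 higher probes, 15 were above them on no edge array. For such probes a fold is only a bound, set between the mean of the brighter tissue and, on each array of the dimmer one, the lowest signal above the blanks or the probe's own signal if that is brighter. Over all called probes, the brighter tissue was above the blanks on all 3 arrays for 57 of the 78 higher and 74 of the 81 lower. In the others its mean holds signals within the range of the blanks, so a bound there is not a strict one. In the remaining 63 higher probes the fitted difference was above 2-fold for 61 and above 4-fold for 9. In the remaining 50 lower probes it was above 2-fold for all 50 and above 4-fold for 14. The dimmer tissue was above the blanks on all 3 arrays for 46 of these 63 and 17 of these 50. The other folds rest partly on signals within the range of the blanks. The bound exceeded 1 for 13 of the 31 lower probes (at least 1.11-fold to at least 2.93-fold) and for 14 of the 15 higher probes (at least 1.02-fold to at least 4.91-fold). A bound above 2-fold was reached by 6 of the 15 higher and 4 of the 31 lower probes. With the bounded probes at their bound, or at 0 where it did not exceed 1, the medians were 1.39 for the higher and -1.30 for the lower probes. A total of 372 probes were above the blanks on all 6 arrays, and 61 of these were called, against 159 of all 974 (16.3%). Of the 61, 44 were higher and 17 lower. This filter drops probes that are dim in 1 tissue, which were more often the lower ones, so the split is partly set by the filter.

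The number of calls depended on the fit. With scan day as a block, 18 probes were called (1.85%), 2 higher (0.205%) and 16 lower (1.64%), and 17 of them were among the 159. All 78 higher and all 81 lower probes kept their sign in that fit, with medians of 1.04 and -1.31. The same arrays had chosen these probes, so the kept signs describe them and are no support. A tested probe had a median SE of 0.51 in the blocked fit and 0.41 without the block. A fit to the 6 arrays alone called 44 probes (4.52%), 12 higher (1.23%) and 32 lower (3.29%), of which 41 were among the 159. A total of 15 probes, 1 higher and 14 lower, were called in all 3 fits. Leaving out edge replicate 2 gave 52 calls, bed replicate 2 gave 65, edge replicate 1 gave 76 and edge replicate 3 gave 99, and 34 probes (9 higher, 25 lower) were called whichever of the 6 arrays was left out. The balance of directions differed between scales and between fits. Scaling to each array's 75th percentile gave 82 higher and 52 lower probes, and taking that percentile from the probes detected on every array gave 87 higher and 43 lower. Scaling to each array's median gave 22 higher and 101 lower probes, and the values that the authors deposited, which also lack a background subtraction, gave 43 higher and 74 lower. With the scale unchanged, plain background subtraction gave 29 higher and 51 lower. The median difference over all tested probes was 0.10, 0.24, -0.37 and -0.09 with the 3 scales and the deposited values, and -0.04 in the reported fit.

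**Figure D1:**
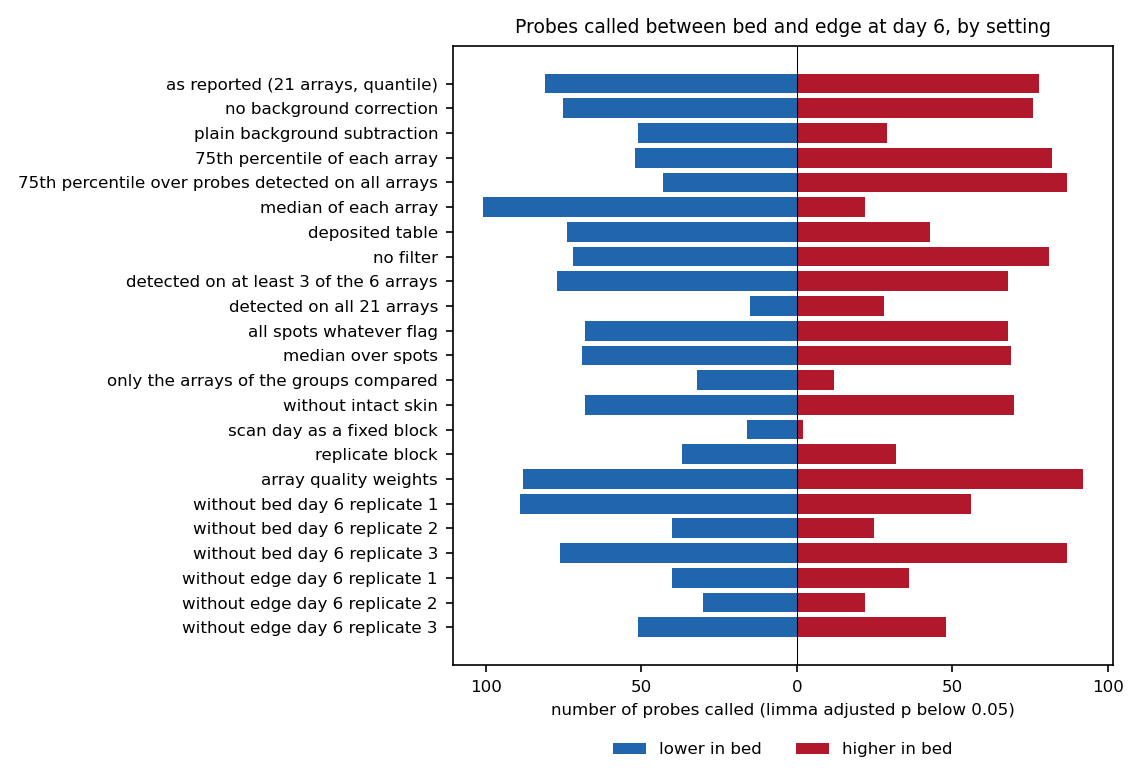
Number of probes called between bed and edge at day 6 (x axis, limma adjusted p below 0.05), higher in the bed to the right and lower in the bed to the left, in the reported fit and under 22 other settings (y axis). The reported fit called 78 higher and 81 lower, and the fit with scan day as a block 2 and 16.

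The 2 lower and 2 higher catalogue probes described next were chosen as called with and without the scan-day block and without overlap of the tissues. They also had to be above the blanks on all 3 arrays of the brighter tissue. These traits were fixed by the choice and are no support for the probes. Probe M200001049 had the largest negative difference between bed and edge. Its log2 signals were 10.88, 10.57 and 12.29 in the 3 bed arrays, against 14.21, 15.33 and 14.78 in the 3 edge arrays, and all 6 were above the blanks. Every edge array was brighter than every bed array, and the distance between the tissues exceeded the spread within them. The log2 difference was -3.53 (SE 0.41, adjusted p = 1.58e-05), an 11.5-fold lower signal in the bed, and the fit with a scan-day block gave -3.80 (SE 0.50, adjusted p = 0.000535). On scan day 2 alone, with 1 array of each tissue, it was -3.90. It was the edge that stood away from intact skin. The edge of day 6 averaged 14.77 ± 0.56 and intact skin 10.83 ± 0.18 (SD, n = 3 each), a difference of 3.94 (SE 0.41, adjusted p = 2.57e-06), whereas the bed at 11.24 ± 0.92 differed from intact skin by 0.42 (SE 0.41, adjusted p = 0.487).

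Probe M200000665 was lower in the bed and near its intact level in the edge. Its signals were 8.79, 10.06 and 8.74 in the bed arrays, against 12.21, 12.63 and 12.16 in the edge arrays. Of the bed arrays only replicate 2 was above the blanks, so 2 of the 3 bed signals lay within the range of the blanks. The groups did not overlap. The log2 difference was -3.14 (SE 0.73, adjusted p = 0.0102), and the blocked fit gave -3.59 (SE 0.85, adjusted p = 0.0321). The pair of arrays of scan day 2 gave -3.36. The edge of day 6, at 12.33 ± 0.26, was not shown to differ from intact skin at 12.16 ± 0.69 (edge minus intact 0.18, SE 0.73, adjusted p = 0.972), and the bed was lower than intact skin by a log2 difference of -2.96 (SE 0.73, adjusted p = 0.00853). The call between bed and edge was lost with plain background subtraction (-3.73, adjusted p = 0.139). At day 2 the bed was at least 18.4-fold lower than the edge (adjusted p = 6.54e-05), with no bed array above the blanks, and at day 15 the log2 difference was -2.61 (SE 0.73, adjusted p = 0.0328), where the bed arrays spread from 7.4 to 11.90. With the scan-day block, day 2 stayed called (adjusted p = 0.000619) and day 15 did not (-3.06, SE 0.85, adjusted p = 0.0649).

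Of the higher probes, 2 held with scan day as a block. Probe M200000905 had signals of 11.05, 11.45 and 10.88 in the bed arrays, against 9.26, 8.90 and 9.03 in the edge arrays, of which only edge replicate 1 was above the blanks. All bed arrays lay above all edge arrays by more than the spread within either tissue. The difference was 2.06 (SE 0.33, adjusted p = 0.000547), and the blocked fit gave 1.78 (SE 0.42, adjusted p = 0.0321). The pair of arrays of scan day 2 gave 2.02. In intact skin this probe was above the blanks on no array, and the bed of day 6 was at least 3.36-fold higher (adjusted p = 3.02e-05). Without the block, bed exceeded edge at the other days too, at day 2 by 2.05-fold or more (adjusted p = 0.0112) and at day 15 by 1.42-fold or more (adjusted p = 0.0110). No edge array of these days was above the blanks. Bed replicate 2 of day 15 was not above them either, so that day's bound is not a strict one. The blocked fit called neither day 2 (adjusted p = 0.159) nor day 15 (adjusted p = 0.186).

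Probe M200000598 had signals of 10.77, 10.75 and 11.26 in the bed arrays, against 9.79, 9.70 and 7.96 in the edge arrays. The groups did not overlap, but the lowest edge value, in replicate 3, came from 1 spot, the other spots having been left out for their flag. The difference was 1.77 (SE 0.38, adjusted p = 0.00802), and 1.97 in the blocked fit (SE 0.46, adjusted p = 0.0321). Without edge replicate 3 it was 1.18 (adjusted p = 0.0280), with all spots kept 1.70 (adjusted p = 0.00549), and with the 6 arrays alone it was not called (adjusted p = 0.0786). The bed-edge difference was 0.74 at day 2 (SE 0.38, adjusted p = 0.249) and 1.34 at day 15 (SE 0.38, adjusted p = 0.0354). The blocked fit did not call day 15 (1.53, SE 0.46, adjusted p = 0.0905).

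Heparanase (Hpse), the enzyme that cleaves heparan sulfate, read 11.49, 10.97 and 11.06 in the bed arrays, against 10.22, 10.25 and 10.06 in the edge arrays. The groups did not overlap and all 6 arrays were above the blanks. The difference of 1.0 (SE 0.32, adjusted p = 0.0427) was called here, and its call was lost in 15 of 24 other settings, among them the blocked fit (0.76, SE 0.41, adjusted p = 0.422), the 6 arrays alone (adjusted p = 0.120) and the omission of any 1 of the 6 arrays (0.84 to 1.10). Hpse in the bed of day 6 exceeded intact skin by 0.80, which did not pass (SE 0.32, adjusted p = 0.0858), and its bed-edge differences of 0.40 at day 2 (SE 0.32, adjusted p = 0.5) and 0.53 at day 15 (SE 0.32, adjusted p = 0.334) did not pass either. The bed-edge difference of Hpse at day 6 was not shown to differ from that at day 2 (0.60, SE 0.46, adjusted p = 0.492) or at day 15 (0.47, SE 0.46, adjusted p = 0.885).

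Fibulin-1 (Fbln1), a matrix protein, read 10.57, 8.91 and 11.35 in the bed arrays, against 9.90, 11.28 and 10.90 in the edge arrays, so the tissues overlapped. The difference of -0.42 (SE 0.51) did not pass (adjusted p = 0.600), and without bed replicate 2, the only one of the 6 not above the blanks, it was 0.27 (adjusted p = 0.767). Ndst3, an enzyme that modifies heparan sulfate chains, was above the blanks on none of the 21 arrays, and no level is given. The listed genes of heparan sulfate synthesis, removal and core proteins, of the matrix and of matrix proteases had no other named probe on the array, so these lists cannot be described beyond Hpse and Fbln1. Of the 75 probes with a public identifier, 43 were tested and 7 were called (16.3%, the same share as over all 974 tested probes), 4 higher in the bed and 3 lower.

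**Figure D2:**
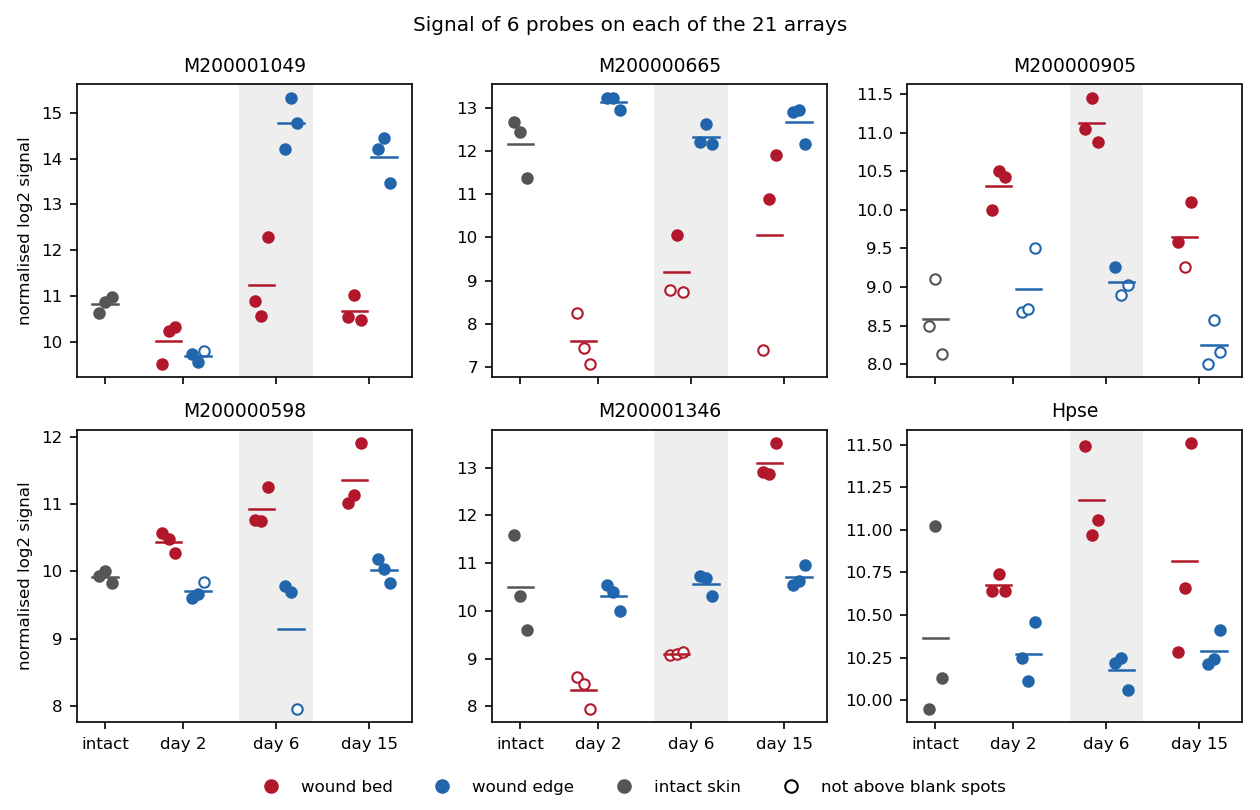
Normalised log2 signal (y axis) of 6 probes on each of the 21 arrays, by day (x axis) and tissue, with day 6 shaded. Each point is 1 array, open where the probe was not above the blank spots, and bars are group means of 3 arrays. At day 6, M200001049 read 10.57 to 12.29 in the bed and 14.21 to 15.33 in the edge.

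Set against intact skin, the probes called at day 6 stood away from it mainly in the bed. The 78 higher probes had a median log2 signal above intact skin of 1.27 in the bed of day 6, and all 78 lay above it, whereas in the edge of day 6 the median was -0.33 and 24 of 78 lay above. The 81 lower probes had a median of -1.41 in the bed of day 6, where 7 of 81 lay above intact skin, and of 0.14 in the edge, where 48 did. Over all tested probes the medians were -0.02 in the bed and 0.00 in the edge. The day 6 arrays chose these probes, so the medians describe them and carry no test.

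The arrays of the other days did not enter the day 6 contrast, but they entered the estimate of spread behind its calls. At these days the bed medians had the same sign and were smaller. The edge median of the lower probes was below intact skin at day 2 and above it at day 15. In the bed of days 2 and 15 the higher probes had medians of 0.40 and 0.61 above intact skin, and in the edge -0.09 and -0.24. The lower probes had -0.65 and -0.75 in the bed of days 2 and 15, and -0.11 and 0.19 in the edge. The bed had its largest distance from intact skin at day 6 in both sets of probes, the day on which they were chosen.

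**Figure D3:**
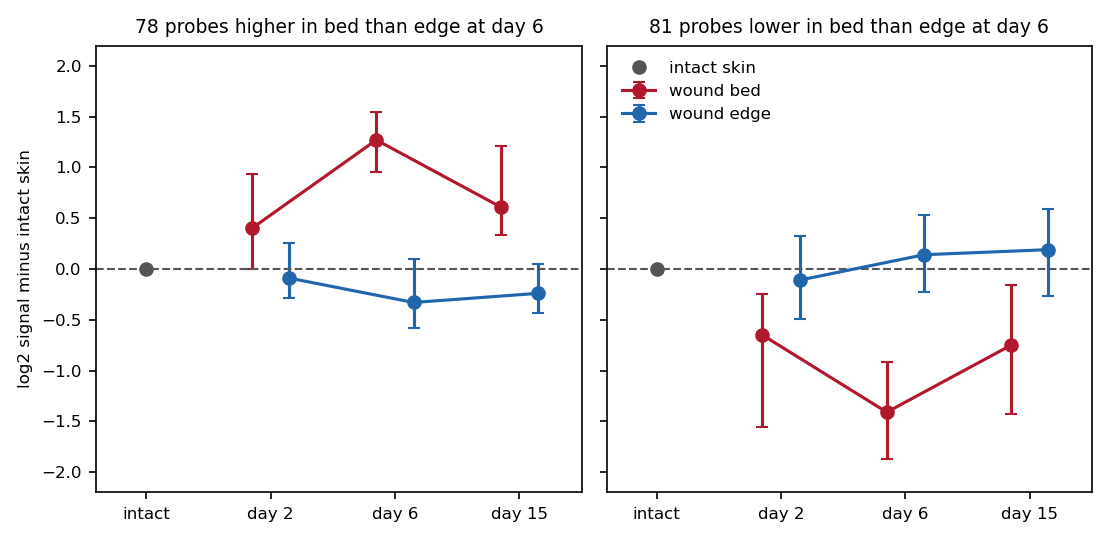
Log2 signal minus that of intact skin (y axis) at each day (x axis) for the 78 probes higher and the 81 probes lower in the bed than the edge at day 6. Points are medians over the probes and bars run from the 25th to the 75th percentile. In the bed of day 6 the medians were 1.27 and -1.41, and day 6 is the day that chose the probes.

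In the group means, the bed-edge difference at the other days had the same sign for most of the probes called at day 6. On scan day 2 alone, described in the next paragraph, this did not hold for the higher probes at day 2. At day 15 their share there was near that of all tested probes. At day 15, 74 of the 78 higher probes (94.9%) were again higher in the bed and 77 of the 81 lower probes (95.1%) again lower, where 49.3% and 50.7% of all tested probes lay on these sides. The medians were 0.96 and -1.03, against -0.01 over all tested probes. At day 2 the counts were 65 of 78 (83.3%) and 66 of 81 (81.5%), where 54.5% and 45.5% of all tested probes lay on these sides, with medians of 0.48 and -0.68, against 0.06. Of the higher probes, 15 were also called higher at day 15 and 4 at day 2, where 3.90% of all tested probes were called higher on either day (8.21% and 8.93% called in both directions together at days 15 and 2). Of the lower probes, 24 were also called lower at day 15 and 25 at day 2, where 4.31% and 5.03% were. In the opposite direction, 1 of the higher probes was called lower at day 2 and 1 of the lower probes was called higher at day 15. Across the 974 probes the day 6 difference correlated with that of day 15 at r = 0.659 and with that of day 2 at r = 0.371, where probes are not independent and bed and edge arrays were split over scan days in the same way at each day.

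On scan day 2, which each day's bed replicate 1 and edge replicate 3 shared, the counts were as follows. At day 15, 74 of the 81 lower probes were lower in the bed array (median -1.16), where 48.5% of all tested probes were, and 43 of the 78 higher probes were higher (median 0.15), where 51.4% were. At day 2, 52 of the 81 lower probes were lower (median -0.27), where 47.3% were, and 30 of the 78 higher probes were higher (median -0.33), where 52.4% were. These pairs hold 1 array per tissue and have no test. Their edge arrays were dim, with a median signal of 1.26 and 1.25 times the local background at days 2 and 15, against 1.79 and 2.43 in their bed arrays. At day 6, where the pair read 1.95 in the edge and 1.68 in the bed and took part in the calls, 76 of 78 and 81 of 81 kept their sign. The part of scan day and of dimness in the differences was not tested beyond these values and the blocked fit.

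**Figure D4:**
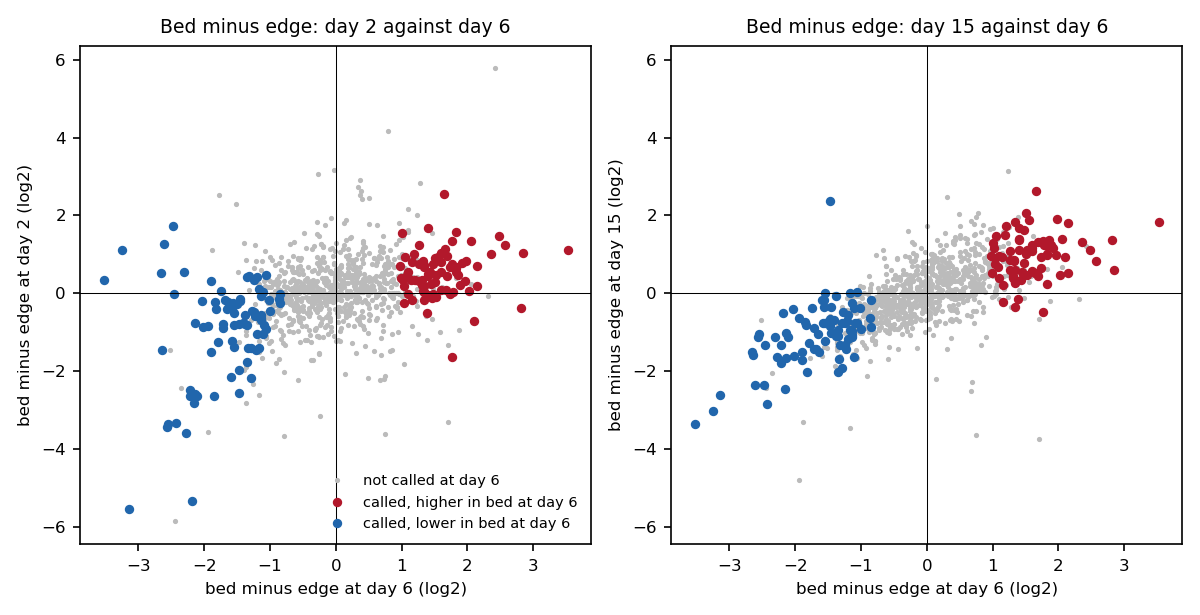
Bed minus edge log2 difference at day 2 (left, y axis) and at day 15 (right, y axis) against that at day 6 (x axis), with 1 point for each of the 974 tested probes. Red and blue points were called higher and lower in the bed at day 6. At day 15, 74 of 78 red points lie above 0 and 77 of 81 blue points below it.

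The bed-edge difference at day 6 itself differed from that at day 2 for 15 probes (1.54%), 5 toward the bed (0.513%) and 10 toward the edge (1.03%), and from that at day 15 for 1 probe (0.103%). With scan day as a block, 13 probes differed from day 2, of which 12 were among the 15. Bed and edge were split over scan days in the same way at each day, so the block left these estimates unchanged and altered only their SE. It is therefore no check on their size. Of the 15, 3 were above the blanks on none of the 6 day 6 arrays, so their difference at day 6 is not a measured one. Of the 15, 6 were called lower and 2 higher in the bed at day 6. Of the 6 lower probes, 2 were above the blanks on no bed array of day 6, so their fitted sizes are not measured ones. The 6 lower probes had fitted bed-edge differences of -3.53 to -1.31 at day 6 and -0.03 to 1.26 at day 2, none was called at day 2, and 5 were called again at day 15, when they ranged from -3.37 to -1.13. Their medians relative to intact skin were 0.31, 0.11 and 0.02 in the bed of days 2, 6 and 15, and -0.19, 2.59 and 1.52 in the edge. Of these 6, 4 were above intact skin in the edge of day 6 and 2 in the edge of day 2. The 2 higher probes had differences of 1.76 and 2.10 at day 6 and of -1.63 and -0.72 at day 2.

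M200001049 was among these 6 lower probes. At day 2 it read 9.52, 10.23 and 10.32 in the bed arrays, against 9.72, 9.55 and 9.80 in the edge arrays, so the tissues overlapped. At day 15 it read 10.53, 11.01 and 10.48 in the bed, against 14.21, 14.45 and 13.46 in the edge. The bed stayed within 9.52 to 12.29 on all 9 arrays, and the edge was bright at days 6 and 15 only. The difference of differences against day 2 was -3.86 (SE 0.57, adjusted p = 0.000748), and against day 15 it was -0.16 (SE 0.57, adjusted p = 0.971).

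The single probe that differed from day 15 was M200001346, named here after its values were seen. It read 9.07, 9.10 and 9.13 in the bed of day 6, against 10.72, 10.68 and 10.31 in the edge, and no bed array was above the blanks. The bed was at least 1.8-fold lower (adjusted p = 0.0154), which the blocked fit did not call (adjusted p = 0.271). The call was also lost without edge replicate 1 (-1.40, adjusted p = 0.0515), without edge replicate 2 (-1.42, adjusted p = 0.0619) and with either 75th percentile scale (-1.18 and -1.05, adjusted p = 0.0565 and 0.107). At day 2 the bed was at least 2.61-fold lower (adjusted p = 0.00226), again with no bed array above the blanks. At day 15 it read 12.90, 12.86 and 13.52 in the bed, against 10.54, 10.63 and 10.96 in the edge, so the order of the tissues was turned round and the groups did not overlap at either day. The edge means of 10.32, 10.57 and 10.71 at days 2, 6 and 15 lay close to the 10.51 ± 1.01 of intact skin (SD, n = 3). The bed-edge difference at day 6 differed from that at day 15 (adjusted p = 0.000621). The fitted size, -3.85 (SE 0.54), rests on bed signals of day 6 within the range of the blanks and is no measured size.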

How the data were processed

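RNA of 21 mouse skin samples (500 ng each) was amplified, labelled with Cy3 and hybridised with 1 colour per array, per the labels' protocols. The authors deposited scanner intensities per spot, quantified from a 532 nm image with software of version 4.1 per the file headers. Spots also carry a flag of 0 to 3, another value in the deposited files whose codes the headers do not explain. A second deposited table gives a scaled log score per probe, which was rebuilt from the scanner signals (median 1 per array, no background subtraction) to within 0.00119. That settles its scale, centring and direction.

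Intensities were corrected with normexp (offset 50), averaged as log2 over the spots without flag 1 and quantile normalized, in limma 3.58.1 (R 4.3.3). A common shift of most probes would be removed by quantile normalization. A linear model with 7 group means was fitted to all 21 arrays (14 residual degrees of freedom), with empirical Bayes, two-sided tests and Benjamini-Hochberg adjustment over 974 probes. Scan day came from the image headers. Simulated data were used to test only the fit to all 21 arrays, for bed against edge at day 6. They had independent noise without a scan-day effect, a shared animal or a floor at the blanks. The other fits were not run on them. No 2 arrays held the same values. The members, lists and tests were chosen with earlier results of these data known. The rule for named probes took every probe with a gene symbol, and 2 higher and 2 lower catalogue probes with the largest difference among those called with and without the scan-day block, above the blanks on all 3 arrays of the brighter tissue and without overlap. Sequences and genome positions of the probes were not used here.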

Additional observations from a re-analysis of the deposited data

Results flagged for a closer look

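Results stand here because the bed-edge difference itself differed between days by a limma test of the difference. Against day 2 this held for 15 of 974 probes, among them M200001049, whose bed-edge difference was lower at day 6 by a log2 difference of -3.86 (bed minus edge -3.53 at day 6 and 0.33 at day 2). Against day 15 it held for 1 probe, M200001346, at a fitted -3.85 (bed minus edge 2.38 at day 15). That size is not a measured one, since no bed array of day 6 was above the blanks for this probe and the bed was only shown to be at least 1.8-fold lower than the edge. Of the 15 probes, 3 were above the blanks on none of the 6 day 6 arrays. Groups of 3 arrays are too small for a test of single outlying samples.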

How the results depend on the processing

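The 159 calls between bed and edge at day 6 were set against 24 alternatives, and 15 of them gave a count within 1.5 times. Among these 15, scan day as a random block had a correlation of 6.8e-06 and so repeated the reported fit, with the same 159 calls. The count was 80 with plain background subtraction, 43 of 323 probes above the blanks on all 21 arrays, 44 with only the 6 arrays, 18 with scan day as a fixed block, and 52 to 163 without any 1 of the 6 arrays. No called probe changed its sign in the 21 alternatives run on all 974 probes, and 13 probes, 1 higher and 12 lower, were called in all of them. All 21 drew on arrays that had chosen these probes, so the kept signs are no independent support. Some of these alternatives keep the same difference of group means, so the sign could not change there. They are the 6 arrays alone, the fit without intact skin, the random scan-day block, the replicate block and robust empirical Bayes. The 15 probes that differed from day 2 became 8 without a filter, 0 of 323 with the probes above the blanks on all arrays (43 at an unadjusted p below 0.05 in limma), 7 without intact skin, 73 with array weights and 6 to 20 without any 1 array. The 1 probe that differed from day 15 became 2 with plain subtraction or the median over spots, 3 with either 75th percentile scale or only the arrays compared, 4 with array weights, 0 of 323 with the probes above the blanks on all arrays (16 at an unadjusted p below 0.05 in limma, M200001346 not being among those tested), and 1 to 3 without any 1 array. Fbln1 ranged from -0.95 without bed replicate 3 to 0.27 without bed replicate 2. Where the construction does not show it (fewer probes or arrays), the cause was not tested.

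Same-numbered bed and edge arrays of day 6 deviated from their group means with correlations of -0.0256, -0.156 and -0.156. With 3 arrays a group, and no same-numbered arrays of day 6 scanned on the same day, these values cannot decide whether the samples are paired. The reported fit took them as unpaired. With a replicate block, 69 probes were called between bed and edge at day 6, 2 differed from day 2 and 1 from day 15.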
